A study of Mus musculus with 2 samples.

Results

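The genes described here encode the protein machinery of pre-mRNA splicing and its best known regulators: hnRNP proteins, SR proteins, small nuclear ribonucleoprotein (snRNP) proteins and the SF3A and SF3B complexes. Members were taken by symbol alone, as every probe set whose platform annotation named a single gene starting with Hnrnp, Srsf, Snrp or Sf3. This gave 139 probe sets of 47 genes, among 45037 probe sets and 18193 genes on the arrays. By class there were 19 Hnrnp, 10 Srsf, 9 Snrp and 9 Sf3 genes. The compared RNA came from CD8+ T cells that were either activated and proliferating at 72 h or naive. The mice were of the pmel-1 strain, whose transgenic T cell receptor recognises a melanocyte antigen. The labels name neither the agent of activation nor the age of the mice. Both groups came from mice with this transgene, and T cells of a normal repertoire were not examined. RNA of 4 independent experiments was pooled for each array, with 1 array per group, so no difference below has a replicate error or a test, and the precision is limited by there being 2 arrays.

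Splicing removes introns from a new transcript in a particle built on small nuclear RNAs. The U1 snRNP recognises the start of the intron and the U2 snRNP, with SF3A and SF3B, its branch point, while a ring of Sm proteins forms the core of most of these particles. SR proteins mostly promote the use of exons to which they bind, and many hnRNP proteins coat the transcript and oppose them. Some genes of both families are known to limit their own level through alternative transcripts that carry a premature stop. T cells are a textbook case of regulated splicing, since activation shifts the isoforms of the surface phosphatase CD45, a shift to which hnRNP L and hnRNP LL are known to contribute.

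Among the 45 members measured, 19 were higher in activated than in naive cells and 1, Sf3b1, was lower. A gene was measured when its brightest probe set, the one with the highest mean of both arrays, reached an intensity of 100 on at least 1 array. It was called higher or lower when the arrays differed at least 1.4-fold, with values under 100 raised to 100, and by more than 100. Of the measured members 42.2% were higher and 2.22% lower, whereas of all 9842 measured genes 23.7% were higher and 20.6% lower. All 45 measured members reached 500, and among the 5104 genes that did so 32.6% were higher and 26.2% lower. The members' median log2 ratio of activated over naive was 0.40, beside 0.01 for all measured genes and 0.10 for genes reaching 500. Differences were moderate: the 19 higher genes lay between 1.42-fold (Hnrnpdl) and 3.03-fold (Hnrnpll), and 4 of them (Hnrnpll, Snrpa1, Srsf2 and Srsf9) exceeded 2-fold. Snrpb2, at 1.36-fold, was the closest below the minimum.

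The count of higher members depended on how the arrays were scaled, while 1 to 3 members were lower under each scaling tried. After loess scaling, which sets the ratio of typical genes to 1 at every brightness, 14 members (31.1%) were higher and 1 lower, beside 29.5% and 29.2% of the genes reaching 500, so that the higher share stood near that of other bright genes. After quantile normalization 16 were higher and 3 lower (84.2% of the called members higher, against 95% as deposited), beside 29.1% higher and 29.6% lower of the genes reaching 500, the added lower genes being Hnrnpf and Hnrnpk, the second through another of its probe sets becoming the brightest. The members' median was 0.20 after loess and 0.16 after quantile normalization, and 31 and 30 of the 45 lay above 0, against 37 as deposited. An array gives each transcript relative to the others in the pool, so more RNA per cell and more cells of one kind cannot be told apart.

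**Figure D1:**
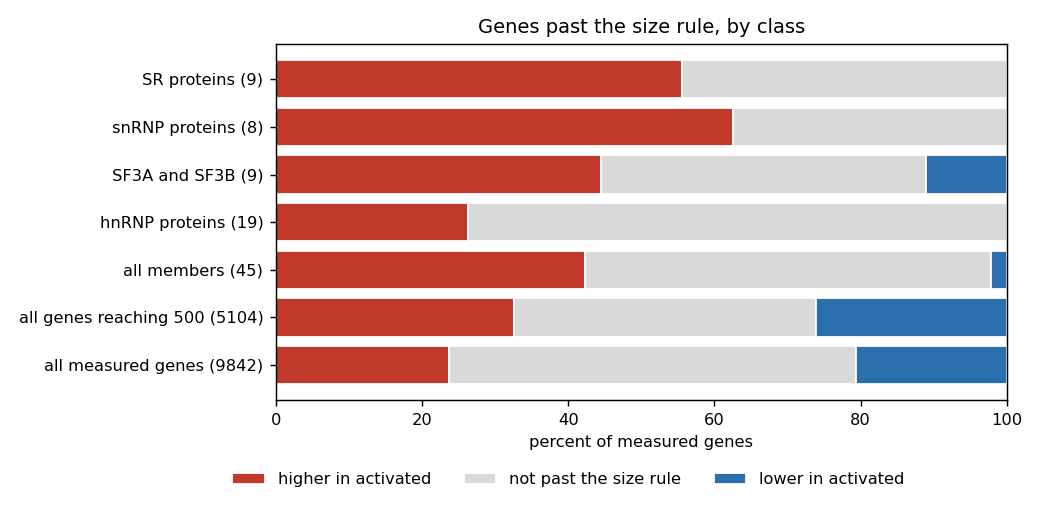
Percent of measured genes in each class that were higher in activated cells (red), not past the size rule (grey) or lower (blue), with the number measured in brackets; there is 1 array per group. Higher genes made up 62.5% of snRNP, 55.6% of SR, 44.4% of SF3 and 26.3% of hnRNP genes, and lower ones appear among the members in the SF3 bar alone.

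SR proteins divided into a group of 5 that was higher in activated cells and a group of 4 that did not pass the size rule. The higher share was 55.6%, beside 32.6% higher and 26.2% lower among genes reaching 500. The class median log2 ratio was 0.56, beside 0.10 for genes reaching 500. After loess scaling 5 SR genes were higher, and at a fold minimum of 2 the count was 2. Srsf1, the founding member of the family, was at 6834 on the activated array and 3582 on the naive array (1.91-fold higher). Srsf2, also known as SC35, was at 5430.0 and 2444 (2.22-fold higher). For both genes every measured probe set was called higher, 6 of 6 for Srsf1 with log2 ratios of 0.79 to 1.23 and 4 of 4 for Srsf2 with 0.74 to 1.34.

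Srsf3, the smallest SR protein, was at 4664 on the activated array and 2654 on the naive array (1.76-fold higher). Srsf9 was at 1323 and 647 (2.04-fold higher) by its single probe set. Srsf10, which represses splicing when it loses its phosphates, was at 1222 and 828 (1.48-fold higher). Its 4 probe sets were all called higher but spread from 0.56 to 1.45, the largest value belonging to a probe set at 1290.2 in activated and 474 in naive cells. The brightest probe set therefore gave the smallest ratio of this gene.

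The remaining SR genes stayed within the 1.4-fold limit by their brightest probe sets. Srsf4 was at 1277 in activated and 965 in naive cells, a log2 ratio of 0.40. For Srsf5 the values were 4614 and 5055 (-0.13), and for Srsf6 they were 3153 and 2905 (0.12). Srsf11 had 2404 and 2554 (-0.09), and all 4 of its measured probe sets lay between -0.36 and -0.02. Srsf12 was under 100 on both arrays (6.67 and 34.6) and gave no ratio. Srsf7 has no probe set of its own among those named and was not analysed here.

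**Figure D2:**
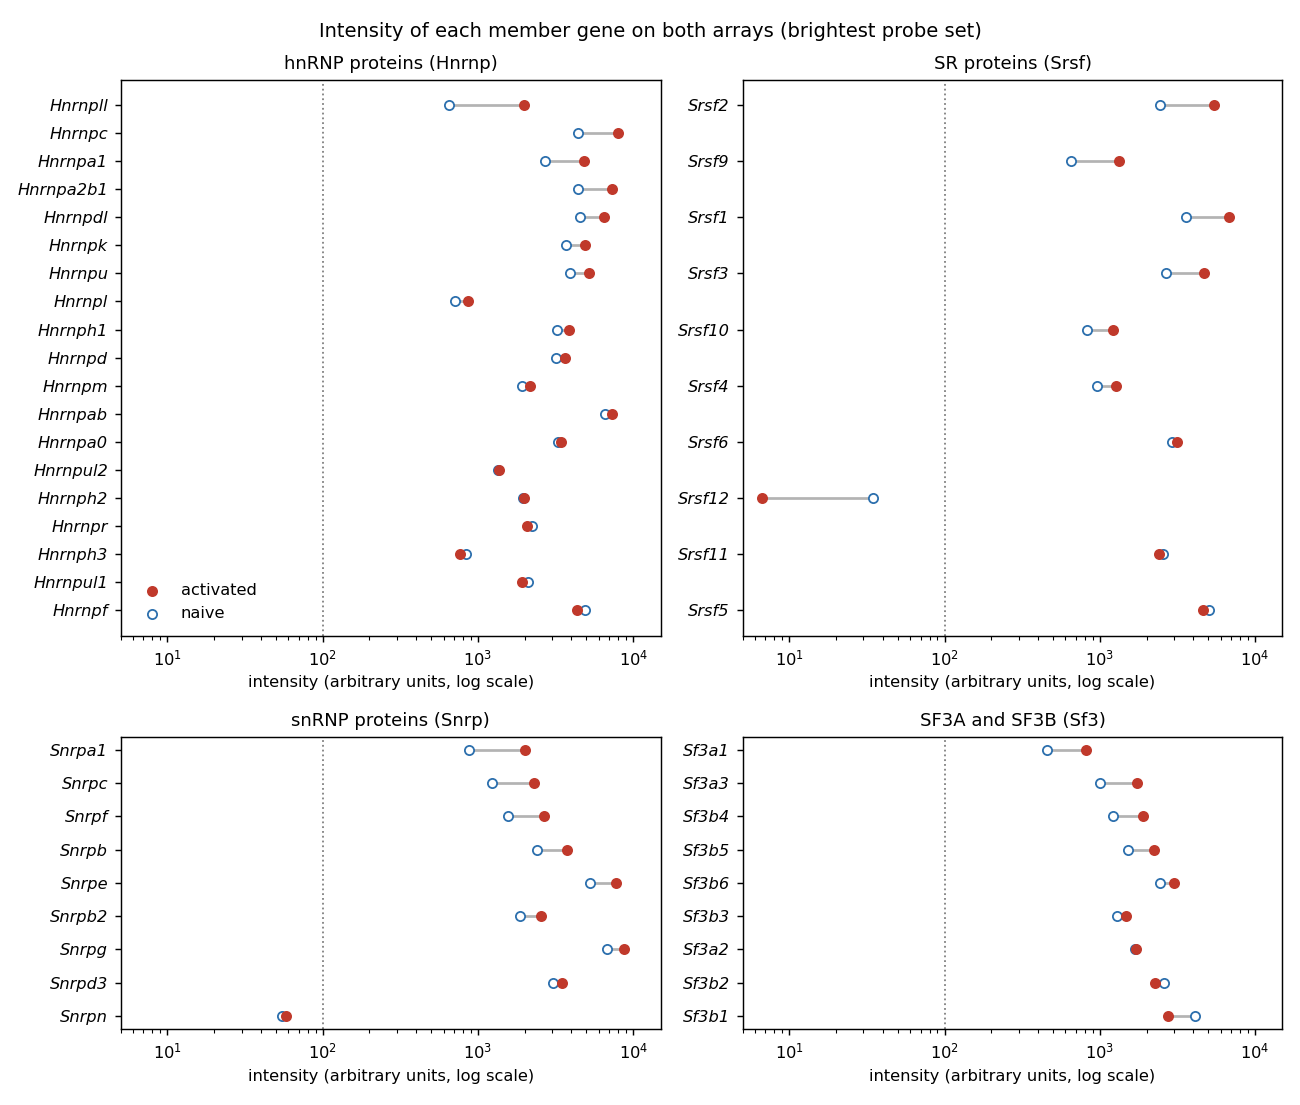
Deposited intensity (log axis, arbitrary units) of the brightest probe set of each of the 47 member genes on the activated array (filled red) and the naive array (open blue), 1 array per group, ordered within each class by ratio; the dotted line marks 100. The widest gaps above that line belong to Hnrnpll, Srsf2 and Snrpa1, and Sf3b1 is the called gene whose naive value is the larger.

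The promoters of 3 SR genes that were higher, and of Sf3b1, the lower gene, are shown as examples of what stands near the starts of genes that differed in call. Windows of 250 bases before to 50 after the start come from RefSeq on build GRCm38.p6, on the gene's own strand. At least 1 window was matched for 42 of the 47 genes. Some genes had several, up to 5 for Hnrnph1, and a motif counted for a gene when any of its windows held it. Capitals mark any of 5 motifs searched on both strands, here CCAAT or its reverse ATTGG and the E2F-type letters GCGGGAA or TTCCCGC. Srsf1 lies at chr11:88047123-88047422 (plus strand), Srsf2 at chr11:116853045-116853344 (minus strand), Srsf3 at chr17:29032410-29032709 (plus strand) and Sf3b1 at chr1:55027429-55027728 (minus strand).
Srsf1: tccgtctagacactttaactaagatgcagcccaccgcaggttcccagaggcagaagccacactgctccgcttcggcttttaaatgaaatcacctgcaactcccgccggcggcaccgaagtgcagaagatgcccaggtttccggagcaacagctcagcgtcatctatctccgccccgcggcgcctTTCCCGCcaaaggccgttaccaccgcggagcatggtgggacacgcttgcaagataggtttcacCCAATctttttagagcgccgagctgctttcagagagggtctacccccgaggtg
Srsf2: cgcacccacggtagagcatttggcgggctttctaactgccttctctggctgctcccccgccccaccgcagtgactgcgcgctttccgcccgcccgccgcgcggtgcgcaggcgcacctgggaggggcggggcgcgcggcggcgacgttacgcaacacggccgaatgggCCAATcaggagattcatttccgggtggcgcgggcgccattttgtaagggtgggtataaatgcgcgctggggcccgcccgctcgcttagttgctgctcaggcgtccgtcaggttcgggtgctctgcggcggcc
Srsf3: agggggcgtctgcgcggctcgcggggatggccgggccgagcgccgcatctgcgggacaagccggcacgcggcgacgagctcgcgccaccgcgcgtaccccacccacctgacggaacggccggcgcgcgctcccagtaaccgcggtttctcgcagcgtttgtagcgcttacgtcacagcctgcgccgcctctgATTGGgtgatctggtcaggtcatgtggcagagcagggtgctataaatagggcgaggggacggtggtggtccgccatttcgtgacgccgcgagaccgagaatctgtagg
Sf3b1: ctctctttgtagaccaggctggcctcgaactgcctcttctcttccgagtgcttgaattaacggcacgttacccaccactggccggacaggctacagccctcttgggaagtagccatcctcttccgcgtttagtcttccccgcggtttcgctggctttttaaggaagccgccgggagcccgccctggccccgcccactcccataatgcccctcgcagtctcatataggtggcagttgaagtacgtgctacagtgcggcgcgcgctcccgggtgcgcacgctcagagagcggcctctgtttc

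The CCAAT letters, known as a binding sequence of the factor NF-Y, began at position -3 from the start of Srsf1, -82 from that of Srsf2 and -58 from that of Srsf3, and the Sf3b1 window held none of the 5 motifs. Among SR genes CCAAT stood in 4 of the 5 higher genes (Srsf9 being without it) and in 0 of the 4 measured genes that did not pass. In the other classes CCAAT stood in 3 of 4 higher and 9 of 13 not past genes for Hnrnp, in 1 of 4 and 2 of 3 for Snrp and in 0 of 2 and 2 of 4 for Sf3. Over all members it stood in 8 of the 15 higher and 13 of the 24 not past, beside 43.3% of 8030 measured genes with a window and 41.1% of all 27025 genes in the table. ETS-type letters (CCGGAAG or CTTCCGG) stood in 15 of the 42 members, or 35.7%, beside 22.2% of measured genes and 9.93% of all genes, and E2F-type letters in 7 members (16.7%, 9.94% and 5.29%). The E-box letters CACGTG were in 4 members (9.52%, 12.1% and 8.09%), none of them among the 15 higher genes, and the YY1-type letters AAGATGGCG or CGCCATCTT in 1 member (2.38%, 4.03% and 1.64%). Genes with several windows had more letters searched, Hnrnpa2b1 being the only higher gene among them. The shares of higher and not past genes were not adjusted for this. A match is a run of letters and not a measured binding site.

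Proteins of the spliceosomal snRNPs were above 0 on the log2 scale for all 8 measured members, with a median of 0.59. By the size rule 5 of the 8 were called higher (62.5%) and none lower. The shares of genes reaching 500 were 32.6% higher and 26.2% lower. Under loess scaling 3 of the 8 were called higher, Snrpb and Snrpe no longer passing, beside 29.5% of genes reaching 500. In the Sm ring, Snrpb was at 3723 on the activated array and 2397 on the naive array (1.55-fold higher). Snrpe was at 7752 and 5294 (1.46-fold), and Snrpf at 2666 and 1559.8 (1.71-fold). The other ring members did not pass: Snrpg had 8751 in activated and 6792 in naive cells (1.29-fold) and Snrpd3 3486 and 3028 (1.15-fold).

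Proteins particular to the U1 or U2 snRNP included the largest ratio of this class. Snrpa1, the U2 protein that holds the U2 RNA together with Snrpb2, was at 2006 on the activated array and 879 on the naive array (2.28-fold higher), and its 3 probe sets stood at log2 ratios of 1.19, 1.27 and 1.33. Snrpb2 itself was at 2547 and 1866, a log2 ratio of 0.45 that did not pass, so the partners differed in call. Snrpc, the U1 protein that steadies the pairing with the start of the intron, was at 2290.1 and 1230.3 (1.86-fold higher). Snrpn, a paralogue of Snrpb best known from neurons, lay under 100 on both arrays (57.8 and 54.9).

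Snrpd1, Snrpd2 and Snrpa were represented only by probe sets that also name predicted genes, and were left out of the counts above. A shared probe set of Snrpd1, an Sm ring gene, was at 3789 in activated and 1283 in naive cells (2.95-fold higher), above every member probe set of the Snrp class. The shared probe set of Snrpd2 was at 6073 and 3307 (1.84-fold higher), and that of Snrpa, which encodes a U1 protein, at 1469 and 754 (1.95-fold higher). Of the probe sets shared by Snurf and Snrpn, the pair above 100 gave log2 ratios of 0.01 and -0.13. With the 16 shared probe sets included, an alternative chosen after seeing the data, 23 member genes were higher and 1 lower. More than 45 genes were then measured, Hnrnpa3, Snrpa, Snrpd1 and Snrpd2 being added. The share over all genes was not computed for this alternative. All these values are uncertain as to the locus.

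Within SF3, the complexes that place the U2 snRNP on the branch point, 4 of 9 genes were higher (44.4%) and Sf3b1 was lower (11.1%). Among genes reaching 500, 32.6% were higher and 26.2% lower. After loess scaling 3 SF3 genes were higher, beside 29.5% of genes reaching 500. By probe set 5 of 24 were higher and 4 lower (median 0.07), beside 21.9% and 19.3% of all measured probe sets. Sf3b1, the large scaffold that clasps the branch point and is recurrently mutated in blood cancers, was at 2748 on the activated array and 4127 on the naive array, and so lower in activated cells. All 4 of its probe sets were called lower, with log2 ratios of -1.12, -0.73, -0.59 and -0.56, the third being the brightest. The call was the same under median, quantile and loess scaling but not at a fold minimum of 2.

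The other SF3B subunits were called higher or did not pass. Sf3b4, which binds next to the branch point, was at 1885 in activated and 1215 in naive cells (1.55-fold higher), although its dimmer probe set (0.41) did not pass. Sf3b5 was at 2229 and 1524 (1.46-fold higher), near the limit, and its other measured probe set gave 0.46. That call did not hold after loess scaling or without the _x_at, _s_at and _a_at probe sets. Sf3b6, which touches the branch adenosine, was at 3025 and 2429.7 (0.32). Sf3b2 had 2269 and 2596 (-0.19), with 6 measured probe sets between -0.19 and 0.09. Sf3b3 had 1474 and 1286 (0.20) by its brightest probe set and -0.48 by its other.

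SF3A has 3 subunits, and they did not share a call. Sf3a1 was at 816 on the activated array and 459.8 on the naive array (1.77-fold higher), and Sf3a3 at 1737 and 1007 (1.73-fold higher). Sf3a2 was at 1716 and 1687, a log2 ratio of 0.02.

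The hnRNP class had the smallest share of higher genes, 5 of 19 (26.3%), near the 23.7% of all measured genes and below the 32.6% of genes reaching 500, and no lower gene. Its median log2 ratio of 0.19 came to 0.02 after quantile normalization, with 3 genes higher and 2 lower, and to 0.06 after loess, with 3 higher. Without probe sets ending in _x_at, _s_at or _a_at, where the gene had another, 1 hnRNP gene was higher and 2 were lower. Hnrnpll, a T cell regulator of CD45 exon skipping, had the highest ratio of all 45 measured members. It was at 1986 on the activated array and 655 on the naive array (3.03-fold higher), and its second probe set, at 1081 and 353, gave nearly the same log2 ratio (1.61 against 1.60). Its paralogue Hnrnpl, which binds the same kind of CA-rich RNA, was at 868 and 714 (1.22-fold) and did not pass.

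Hnrnpc, which packs uridine-rich stretches of new transcripts, was at 8033 in activated and 4420.4 in naive cells (1.82-fold higher) by its brightest probe set, and its other measured probe set gave 0.27. Hnrnpa2b1, an A/B-type protein that also sorts RNA for transport, was at 7273 and 4431 (1.64-fold higher), with 3 of 4 probe sets called higher and the remaining at -0.06. The calls of Hnrnpa2b1 and Hnrnpdl did not hold after loess or quantile scaling, nor did that of the snRNP gene Snrpe.

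Many hnRNP genes stayed within the limits. Hnrnpu, a chromatin-bound scaffold protein, was at 5201 on the activated array and 3935 on the naive array (0.40 on the log2 scale). Hnrnpd, also called AUF1 and known for binding AU-rich messages, was at 3624 and 3172 (0.19), and Hnrnpm at 2165 and 1909 (0.18). The F/H-type proteins, which bind runs of G, ranged from -0.17 for Hnrnpf to 0.25 for Hnrnph1, with Hnrnph3 at -0.12 and Hnrnph2 at 0.02. Hnrnpr had -0.12, Hnrnpul1 -0.14, Hnrnpul2 0.03 and Hnrnpa0 0.06, none of which passed the size rule.

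Probe sets of the same gene disagreed in direction for 8 of the 31 members with at least 2 measured probe sets, namely Hnrnpa1, Hnrnpd, Hnrnpdl, Hnrnpk, Hnrnpu, Sf3b3, Srsf3 and Srsf6. Disagreement meant log2 ratios beyond 0.1 on both sides of 0. Over all 4292 genes with at least 2 measured probe sets the share was 18.8%. These genes were not matched to the members by number of probe sets. More probe sets give more room to disagree, and Hnrnpdl had 7 measured and Srsf3 had 6. For Hnrnpd the negative side rested on 1 probe set near the floor, at 69.8 in activated and 112.0 in naive cells. The members that disagreed in direction numbered 10 at a floor of 50 and 7 at a floor of 200. Members with 1 or more probe sets called in each direction numbered 3 of the 31 (Hnrnpa1, Hnrnpdl and Srsf3), beside 56 of the 4292 genes (1.3%). Calls of any kind were mixed in 9 of the 31 members, beside 39.1% of the 4292 genes. Of the other 22, 7 were higher and 1 lower in every measured probe set, and 14 had no probe set past the rule. The standard deviation between probe sets of the same gene was 0.39 on the log2 scale for members and 0.47 for all genes.

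Srsf3 had the widest spread of any member, 2.04 on the log2 scale. Of its 6 probe sets, 5 were called higher, at 0.64 to 1.19, and the sixth, the dimmest, was at 258 on the activated array and 468 on the naive array (1.81-fold lower). Srsf6 also had 1 probe set called lower, at 739 and 1341 (1.82-fold lower), but none called higher, the others lying between -0.21 and 0.12. The positions of these probe sets within the transcripts were not analysed here.

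Hnrnpa1, the classic opponent of SR proteins, was at 4799 on the activated array and 2702 on the naive array by its brightest probe set (1.78-fold higher). The _x_at suffix of that probe set marks probes that can bind other transcripts. Its 2 other probe sets gave 1737 and 2112 (-0.28) and 364 and 592 (-0.70, called lower). A further 3 probe sets that name Hnrnpa1 together with a pseudogene copy and predicted genes were all called higher, at 0.50 to 0.87. The direction for Hnrnpa1 therefore differed between its probe sets and is uncertain.

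Hnrnpdl, a relative of Hnrnpd, had its brightest probe set at 6476 in activated and 4551 in naive cells (1.42-fold higher). Its 7 probe sets included 2 called higher, at 0.51 and 0.55, 1 called lower, at 1025 and 1915 (-0.90), and 4 not past the rule. Hnrnpk, which binds C-rich RNA and DNA, had 4 probe sets at -0.31, -0.29, 0.23 and 0.40, none past the rule. Hnrnpa3, present only on probe sets shared with a predicted gene, split likewise. Its brightest was at 7751 in activated and 4807 in naive cells (higher), and another gave 0.42 and did not pass. The others were both called lower, at 1101 and 1887 (-0.78) and at 1014 and 1602 (-0.66).

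For Hnrnpab, an A/B-type protein, the call depended on which probe set stood for the gene. Its brightest was at 7329.8 on the activated array and 6551 on the naive array (0.16) and did not pass. Of the other 6, 5 were called higher, the ratios running from 0.79 to 1.62, with 1 of them at 7517 and 2578 (2.92-fold higher). By the median of its probe sets Hnrnpab was higher (1.11), while Hnrnpa1 and Hnrnpdl were not.

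**Figure D3:**
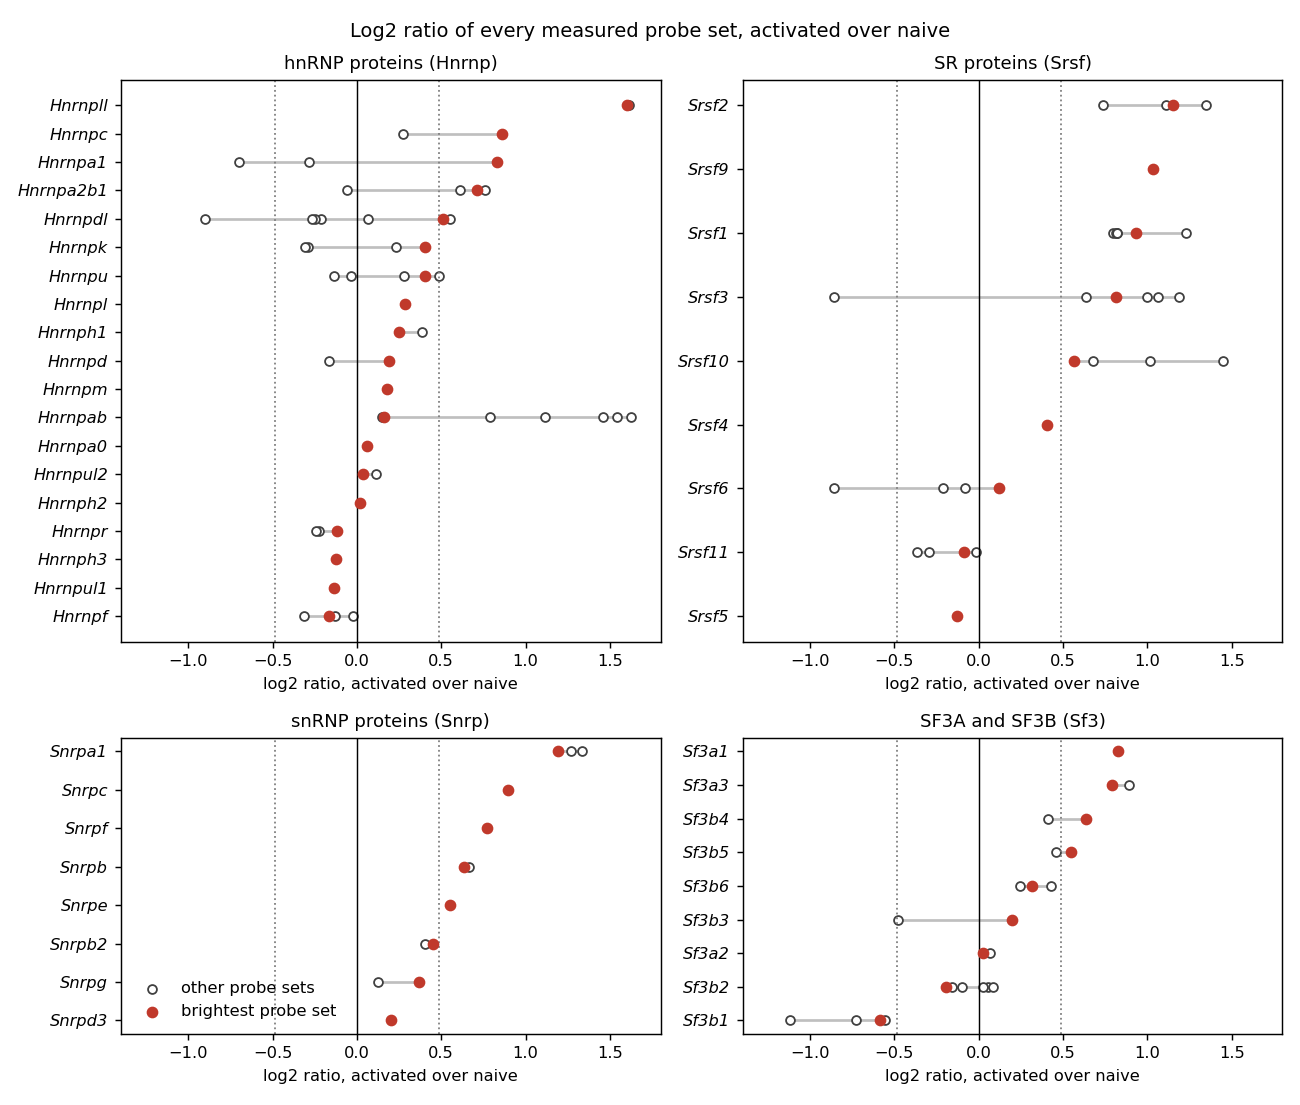
Log2 ratio of activated over naive for every measured probe set (1 array per group), by gene; red marks the brightest probe set, open circles the others, grey lines their span and dotted lines the 1.4-fold limits. Of the genes with at least 2 measured probe sets, Srsf1, Srsf2, Srsf10, Snrpa1, Snrpb, Sf3a3 and Hnrnpll lie wholly beyond the upper limit. Sf3b1 lies wholly beyond the lower, while Srsf3, Hnrnpa1 and Hnrnpdl reach past both.

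Counted by probe set, 47 of the 121 measured members' probe sets were higher and 8 lower. Over all 19250 measured probe sets 21.9% were higher and 19.3% lower. Higher were 14 of 53 Hnrnp, 20 of 31 Srsf, 8 of 13 Snrp and 5 of 24 Sf3 probe sets, and lower were 2 Hnrnp, 2 Srsf and 4 Sf3. The higher shares of Hnrnp and Sf3 lay near that of all probe sets. Srsf held the largest share, with Snrp close to it. The members' other 18 probe sets lay under 100 on both arrays.

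Splicing genes outside the members were compared through 8 lists, which together held 136 measured genes. Of these, 43 were higher and 15 lower, and the median log2 ratio was 0.22. The shares to read each list against are the 23.7% higher and 20.6% lower of all measured genes, or the 32.6% and 26.2% of genes reaching 500. By those shares the higher count of the lists together was near the background of bright genes. The lists of small-particle proteins and their assembly had the highest medians. Of 9 Lsm genes, which form the ring of the U6 RNA but also rings of message decay (Lsm1) and of the U7 particle (Lsm10 and Lsm11), 6 were higher and none lower (median 0.68). Lsm2 was at 1282 on the activated array and 450.1 on the naive array (2.85-fold), Lsm11 at 271 and 120.0 (2.26-fold), and Lsm3 at 2671 and 1236 (2.16-fold). Nearest to 0 were Lsm10 (-0.14) and Lsm4 (0.16).

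The list of snRNP assembly genes, which includes those that load Sm rings onto small nuclear RNAs, had 9 of 15 higher and none lower. All 15 lay above 0, with a median of 0.64. Gemin8 was at 329 on the activated array and 114 on the naive array (2.88-fold), and Smn1, the gene of the survival of motor neuron protein, at 911 and 363 (2.51-fold). Strap, their partner, was at 1906 and 873 (2.18-fold). Tgs1, which modifies the RNA cap, and Sart3 were nearest to 0 (0.16 and 0.17). Of the 7 Snrnp genes 2 were higher, Snrnp25 at 963 and 253 (3.80-fold) and Snrnp35 at 321 and 99.9 (at least 3.21-fold), both proteins of the minor U12-type spliceosome. Snrnp200, the U5 helicase, and Snrnp48, another protein of the minor spliceosome, were nearest to 0 (-0.16 and -0.18).

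Among SR-related proteins and SR kinases 6 of 19 were lower and 2 higher, with a median of -0.07, beside 26.2% lower and 32.6% higher among genes reaching 500. Clk1, a kinase that phosphorylates SR proteins, was at 1014 on the activated array and 2309 on the naive array (2.28-fold lower), its relative Clk4 at 355 and 719 (2.03-fold lower) and the speckle protein gene Srrm2 at 1761 and 2872 (1.63-fold lower). The higher genes were Tra2b, at 4940.0 and 2994 (1.65-fold), and Tra2a, at 1949 and 1294 (1.51-fold), SR-like activators of exons. Probe sets of Tra2a ranged from -1.36 to 0.59. Prpf4b (-0.02) and Rsrc1 (-0.04) were nearest to 0, though probe sets of Prpf4b ranged from -0.66 to -0.02.

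In the list of core spliceosome genes 12 of 34 were higher, near the 32.6% of genes reaching 500, and 3 lower (median 0.26). Prpf31, a tri-snRNP assembly factor, was 2.60-fold higher, Prpf38a 2.26-fold and Cwc27 2.22-fold, and the lower genes were Ddx46 (2.12-fold), Prpf38b (1.62-fold) and Prpf39 (1.45-fold). Probe sets of Ddx46 ranged from -1.08 to 0.90, and the other measured probe set of Prpf31 gave 0.09. Crnkl1 (-0.00) and Prpf8 (0.02), the catalytic centre of the spliceosome, were nearest to 0. At the end of the intron, U2af1 was at 2782 in activated and 1344 in naive cells (2.07-fold higher) and Rbm17 was 1.53-fold higher, the called ones of 8. Puf60 (-0.04) and U2af1l4 (0.10) were nearest to 0.

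Of the other splicing regulators 7 of 36 were higher and 6 lower (median 0.09), both below the 23.7% and 20.6% of all measured genes. Ybx1 was at 7914 on the activated array and 2959 on the naive array (2.67-fold higher), Raly 2.44-fold and Sfpq 2.22-fold higher. Probe sets of Sfpq ranged from -0.58 to 1.32. The cold-inducible gene Cirbp was at 486 and 1227 (2.53-fold lower), Rbm5 2.14-fold and Ptbp2 1.74-fold lower, while Qk (0.05) and Celf2 (-0.06) were nearest to 0. In the exon junction and export list 3 of 8 were higher and none lower (median 0.02): the export adaptor gene Alyref at 3468 and 1418 (2.45-fold), Rbm8a (1.79-fold) and Thoc1 (1.63-fold). Ddx39b (0.01) and Rnps1 (0.03) were nearest to 0, though probe sets of Rnps1 ranged from -0.27 to 0.65.

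**Figure D4:**
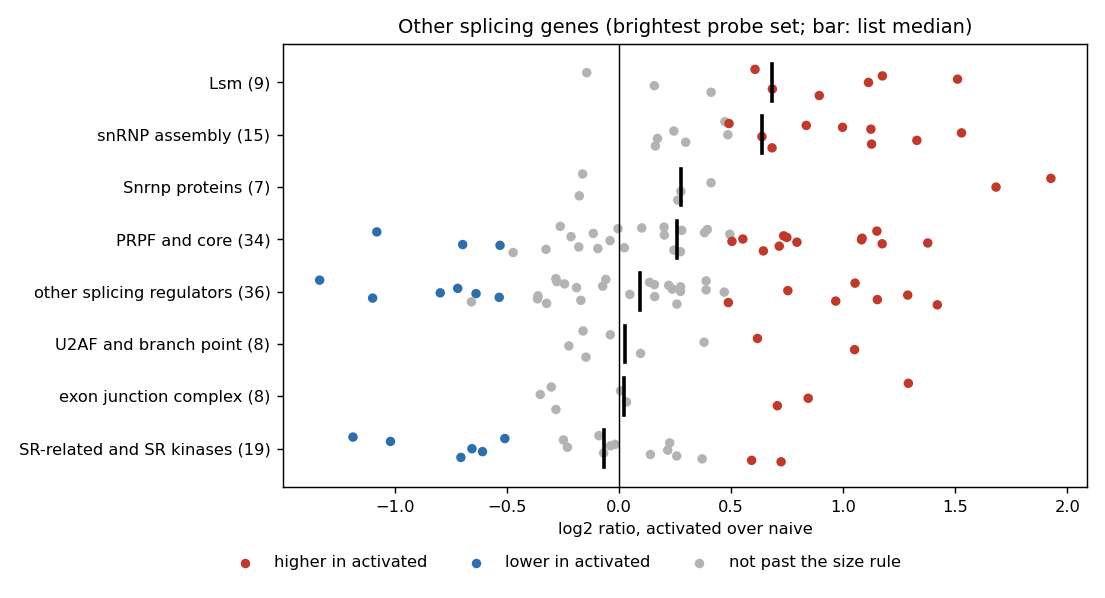
Log2 ratio of activated over naive for each measured gene of 8 splicing lists outside the members (brightest probe set, 1 array per group; bar, list median; number measured in brackets). The Lsm and snRNP assembly lists have the highest medians, 0.68 and 0.64, and the list of SR-related proteins and SR kinases the lowest, -0.07.

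The cells carried the labelled identity on both arrays: all 8 CD8 T cell markers were measured, with sums of 29736 in activated and 41299 in naive cells, 4 of them lower and none higher. All 6 activation and proliferation markers were higher, with sums of 26119 and 1144. Markers of other cells moved with the comparison: class II and dendritic markers summed to 848 on the activated array and 5772 on the naive array (3 of 3 measured lower), B cell markers to 370.1 and 938 (2 of 4 lower), myeloid markers to 519 and 1102 (3 of 3 lower) and erythroid markers to 46.9 and 178 (0 of 1 called). The plasma cell pair went both ways, Jchain lower and Sdc1 higher, and the single NK and 3 CD4 T cell markers with probe sets lay under 100 on both arrays. The part of these cells in the members' values was not tested.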

How the data were processed

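Expression was measured on 2 Affymetrix Mouse Genome 430 2.0 arrays, 1 per group. The deposited values are linear intensities, 1 for each probe set, which the authors made with dChip's difference model and invariant set normalization, per the design text; neither the dChip version nor a genome build is stated there. Detection calls from GCOS 1.3, per the submitters' processing notes, were not used. From these values log2 ratios of activated over naive were computed with Python 3.11.15, pandas 2.3.3 and numpy 2.4.6; loess scaling used statsmodels 0.14.6. After leaving out 64 controls, 34945 probe sets had 1 gene symbol in the platform annotation, 932 several and 9160 none. All 47 members matched RefSeq by Entrez identifier, which changed 0 symbols.

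The size rule (values under 100 raised to 100, ratio of at least 1.4, difference above 100) keeps those parts of the submitters' criteria that intensities allow. Its trial on simulated data planted only differences of 2-fold or more, so it did not examine differences near 1.4-fold. Ratios against a value under 100 are lower bounds. A class or list is described by its counts and median beside those of all genes, with no test. Every member could be named. In other splicing lists up to 3 genes with the largest called ratio each way and up to 2 nearest to 0 were named. These ratios are of the brightest probe set. Other probe sets of a gene named as nearest to 0 could lie further off, as for Snrnp48 (-0.96) and Puf60 (-0.57). Members and lists were chosen with earlier results of these data known, and the protein classes and the alternative with shared probe sets after the values were seen. Alternatives were the fold, difference and floor settings, 3 scalings, and how probe sets stand for a gene.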

Additional observations from a re-analysis of the deposited data

How the results depend on the processing

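No paired analysis was possible because each group has 1 array and the labels carry no replicate numbers; for the same reason no replicate could be left out. Of the 20 called members, all 20 kept their call with difference minimums of 50 or 200, floors of 50 or 200, median scaling, or shared probe sets included, 17 after quantile normalization, 15 after loess, 18 by the median over probe sets and 15 when probe sets ending in _x_at, _s_at or _a_at were left out where the gene had another. At a fold minimum of 2, 4 genes were higher and 0 lower, 18 probe sets were higher and 1 lower, and 0 genes were called both ways. Lower genes numbered 3 after quantile normalization. Without those probe set types 14 genes were higher and 3 lower, among them 1 and 2 hnRNP genes, against 5 and 0. Hnrnpa1 (-0.28) and Hnrnpdl (-0.21) turned negative by the median over probe sets, as did Hnrnpa1 (-0.70), Hnrnpa2b1 (-0.0565) and Hnrnpdl (-0.90) without those probe set types; a different probe set stands for the gene there. Signal over background limits the 18 member probe sets under 100 on both arrays, for which no ratio was formed.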

Other observations

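Among the 31 members with at least 2 measured probe sets, the log2 ratios of the brightest and the dimmest were compared. The brightest gave the higher ratio in 20 and the lower in 11. Over all 4292 genes with at least 2, the counts were 1953 and 2338. Where they differed by more than 0.5, in 9 members (Hnrnpa1, Hnrnpa2b1, Hnrnpc, Hnrnpdl, Hnrnpk, Sf3b1, Sf3b3, Srsf3 and Srsf6), the brightest had the higher ratio in all 9, beside 782 of 1522 such gaps over all those genes. After loess scaling it was so in 6 of 7 and after quantile normalization in 4 of 5. This was noticed in the values and not tested.

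The type of probe set moved with the same values. Member probe sets ending in plain _at, which as a rule read a single transcript, had 17 higher and 7 lower of 59 measured, with a median log2 ratio of 0.15. Those ending in _a_at, read by several transcripts of a gene, had 13 higher and 0 lower of 28 (median 0.43), and those ending in _s_at or _x_at, which can read other genes, had 11 higher and 1 lower of 20 (0.55) and 6 higher and 0 lower of 14 (0.40). Over all genes, plain _at probe sets had 2449 higher and 2407 lower of 11825 (median -0.04) and _a_at ones 805 and 430 of 2700 (0.17). Those ending in _s_at had 312 and 217 of 1192 (0.06), and in _x_at 356 and 198 of 1217 (0.13). The part of probe set type in the members' values was not tested.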
